A study of Mus musculus with 8 samples.

Results

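The autophagy genes described here were Ulk1, Becn1, Atg5, Atg7, Atg16l1, Map1lc3a, Map1lc3b, Sqstm1, Nbr1 and Optn, 10 genes chosen by name for their place in the pathway. A gene was measured where a probe set of the exon array carried its symbol and no other, and 7 of the 10 met this rule, each with 1 such probe set among 14860 genes that had one. Atg7 shared its probe set with Camsap1 and Atg16l1 with Scarna6, so no value was given to either, and Optn had no probe set under its symbol in the annotation used. The arrays, Affymetrix Mouse Exon 1.0 ST, measured total RNA of 8 untreated mammary tumours, 1 array each. In the mice that bore these tumours the MMTV promoter drove the polyomavirus middle T oncogene (PyVT) in the mammary gland, with the strain given as FVB/CD1. The MMTV-PyVT/HdhQ7/Q7 tumours (n = 4) carried normal huntingtin with 7 glutamines, and the MMTV-PyVT/HdhQ111/Q111 tumours (n = 4) carried polyQ-huntingtin with 111 glutamines on both alleles, knocked in at the mouse gene. Tumours were taken at a fixed time after detection, and since they appeared earlier in the Q111/Q111 mice, genotype and age of the mouse cannot be told apart. Whether the 8 tumours came from 8 mice is not stated in the sources, and the p-values therefore refer to tumours and not to animals. All values below are log2 array signals as deposited, and a difference is HdhQ111/Q111 minus HdhQ7/Q7.

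Autophagy encloses cytoplasm in a double membrane, the autophagosome, and delivers it to the lysosome for degradation. A kinase complex built on ULK1 starts the process, a lipid kinase complex held together by Beclin 1 marks the site, and ATG5, ATG7 and ATG16L1 attach LC3 proteins to the growing membrane. Cargo receptors such as p62 (the product of Sqstm1), NBR1 and optineurin bind ubiquitinated cargo and LC3 at once, and p62 is itself degraded with its cargo. Polyglutamine-expanded huntingtin is a known cargo of this pathway, and Becn1, whose human counterpart is often lost together with BRCA1 in breast tumours, acts as a tumour suppressor in mice. Transcript levels do not report the flux through the pathway, which is set largely by protein modification and turnover.

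The start-site regions of a cargo receptor and of the LC3 gene that varied most between the tumours are shown because both genes are known to be transcribed in response to stress. RefSeq (GRCm38.p6) gave the region from 250 bases before to 50 bases after the start for 7 of the 10 genes, and those of Sqstm1 (chr11:50210771-50211070, minus strand) and Map1lc3b (chr8:121590188-121590487, plus strand) read, 5′ to 3′, with matches to the searched letters in capitals:
Sqstm1: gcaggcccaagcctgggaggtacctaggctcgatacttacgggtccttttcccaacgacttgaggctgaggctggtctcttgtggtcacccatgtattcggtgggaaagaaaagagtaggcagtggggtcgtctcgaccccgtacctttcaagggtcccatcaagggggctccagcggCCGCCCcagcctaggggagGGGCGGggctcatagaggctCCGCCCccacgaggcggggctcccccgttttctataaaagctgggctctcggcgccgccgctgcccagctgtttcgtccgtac
Map1lc3b: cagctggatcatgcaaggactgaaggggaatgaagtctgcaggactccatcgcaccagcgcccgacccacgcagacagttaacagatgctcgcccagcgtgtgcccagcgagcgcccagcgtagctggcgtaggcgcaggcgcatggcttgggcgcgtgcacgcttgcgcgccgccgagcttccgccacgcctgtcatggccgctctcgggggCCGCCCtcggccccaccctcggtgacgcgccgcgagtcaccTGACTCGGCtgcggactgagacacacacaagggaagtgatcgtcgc
The Sqstm1 region held 3 GC boxes (GGGCGG on either strand), whose first bases lay 72, 53 and 33 bases before the start. That of Map1lc3b held 1 GC box, 37 bases before the start, and 1 match to the core of the antioxidant response element (TGACNNNGC), at bases 5 to 13 with the start as base 1. Searched on both strands, GGGCGG occurred in 35.7% of 32851 promoters of this length and also in the windows of Atg5, Nbr1, Optn and Ulk1. TGACNNNGC occurred in 12.4% of promoters and, among the 7 genes, in Map1lc3b only. GTCACGTG, the E-box bound by TFEB, occurred in 2.25% of promoters and among the 7 genes in Atg7, and TGACGTCA, the cyclic AMP response element, in 1.79% and among the 7 genes in Atg5. A match is a description of letters in the window and not a bound site. Sequence outside the window was not searched, so a gene without a match here may hold one elsewhere.

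Expansion of the polyQ stretch in huntingtin was not accompanied by a detectable difference in any of the 7 measured autophagy genes. Mean signals of Ulk1, Becn1, Sqstm1 and Nbr1 were between 1.08- and 1.11-fold lower in the HdhQ111/Q111 tumours, and those of Atg5, Map1lc3a and Map1lc3b between 1.07- and 1.14-fold higher. The genotypes overlapped for every gene, and every 95% confidence interval lay within a 1.5-fold difference in either direction.

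**Figure D1:**
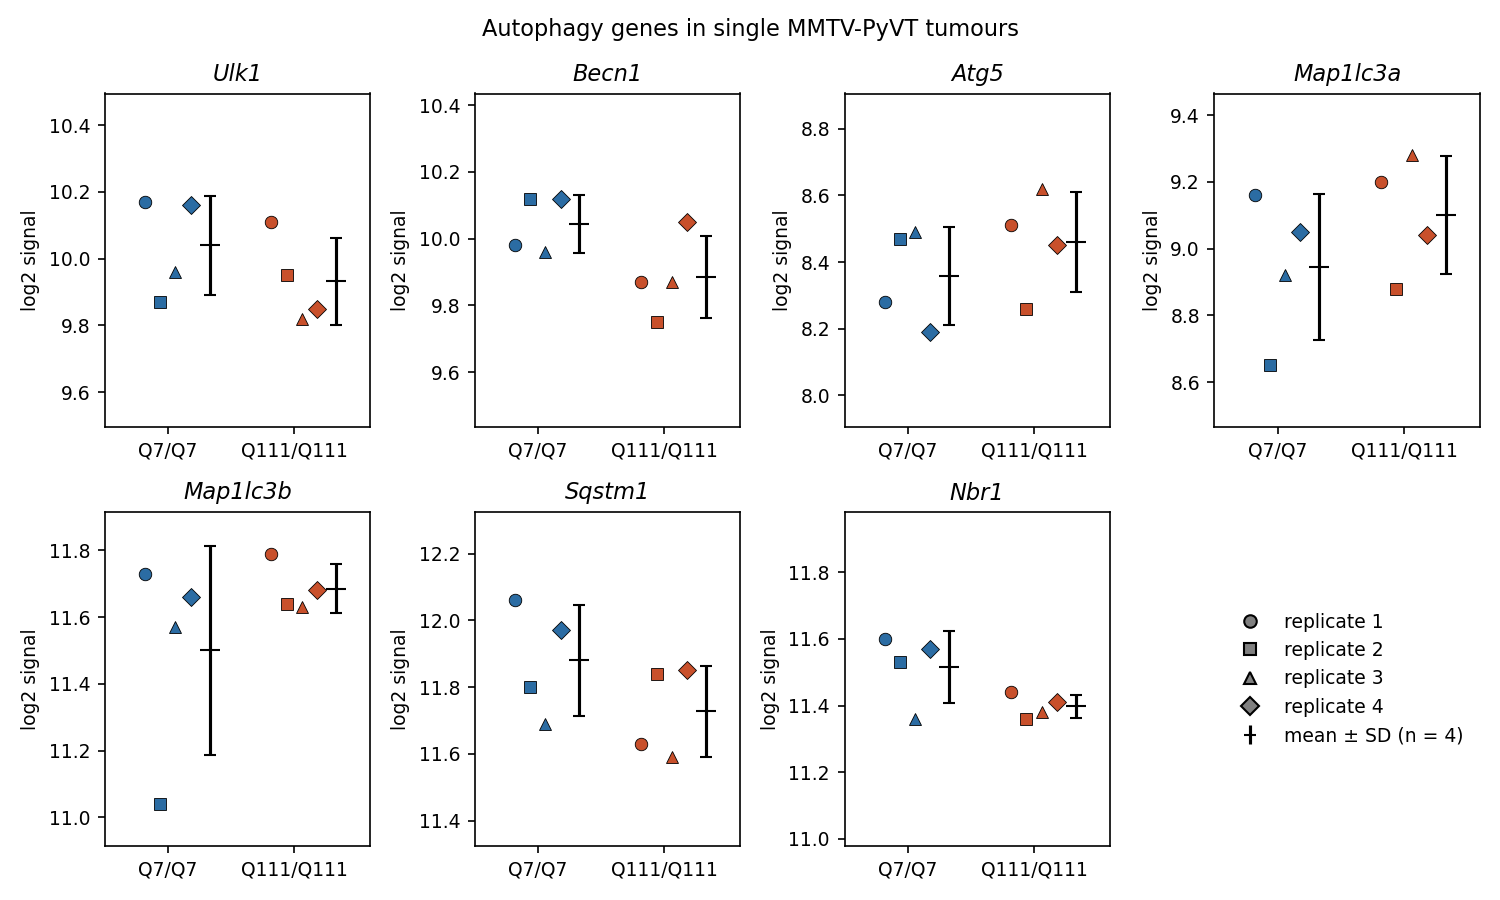
Log2 signal of the 7 measured autophagy genes in each tumour, by huntingtin genotype (symbols: tumours, bars: mean ± SD, n = 4 per genotype, each panel with its own range of 1 log2 unit). The genotypes overlap in every panel, and Map1lc3b is lowest in HdhQ7/Q7 replicate 2 (11.04).

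Ulk1 encodes the kinase that starts autophagy when nutrients fall short. Its log2 signal in the 4 HdhQ7/Q7 tumours was 10.17, 9.87, 9.96 and 10.16, and in the 4 HdhQ111/Q111 tumours 10.11, 9.95, 9.82 and 9.85. The HdhQ111/Q111 tumours 3 and 4 lay below all HdhQ7/Q7 tumours and the other pair lay within their range. The means were 10.04 ± 0.15 and 9.93 ± 0.13 (SD, n = 4 each), a log2 difference of -0.11 (SE 0.10, 95% confidence interval -0.33 to 0.12). Becn1 encodes Beclin 1, the scaffold of the lipid kinase complex that nucleates the membrane. Its signal was 9.98, 10.12, 9.96 and 10.12 in HdhQ7/Q7 and 9.87, 9.75, 9.87 and 10.05 in HdhQ111/Q111 tumours. Replicates 1, 2 and 3 of HdhQ111/Q111 fell below the HdhQ7/Q7 range and replicate 4 inside it. This made Becn1 the gene of the 7 with the most HdhQ111/Q111 tumours outside the HdhQ7/Q7 range. The means were 10.04 ± 0.09 and 9.89 ± 0.12, a log2 difference of -0.16 (SE 0.08, interval -0.35 to 0.03).

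Atg5 encodes the protein that is joined to ATG12 and, with ATG16L1, directs LC3 to the membrane. Its signal was 8.28, 8.47, 8.49 and 8.19 in HdhQ7/Q7 and 8.51, 8.26, 8.62 and 8.45 in HdhQ111/Q111 tumours. HdhQ111/Q111 replicates 1 and 3 lay above the HdhQ7/Q7 range and the remaining pair inside it. The means were 8.36 ± 0.14 and 8.46 ± 0.15, a log2 difference of 0.10 (SE 0.10, interval -0.13 to 0.34).

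The LC3 proteins, which are coupled to lipid on both faces of the autophagosome and serve as its usual marker, are encoded by Map1lc3a and Map1lc3b. Map1lc3a signal was 9.16, 8.65, 8.92 and 9.05 in HdhQ7/Q7 tumours and 9.20, 8.88, 9.28 and 9.04 in HdhQ111/Q111 tumours. HdhQ7/Q7 replicate 2 was the lowest of all 8 tumours, and HdhQ111/Q111 replicates 1 and 3 exceeded the HdhQ7/Q7 range. The means were 8.95 ± 0.22 and 9.10 ± 0.18, a log2 difference of 0.15 (SE 0.13, interval -0.14 to 0.45). Map1lc3b signal was 11.73, 11.04, 11.57 and 11.66 in HdhQ7/Q7 tumours and 11.79, 11.64, 11.63 and 11.68 in HdhQ111/Q111 tumours. HdhQ7/Q7 replicate 2 was again the lowest, and the other 7 tumours lay between 11.57 and 11.79. The means were 11.50 ± 0.32 and 11.68 ± 0.07, a log2 difference of 0.18 (SE 0.15, interval -0.15 to 0.52). Without HdhQ7/Q7 replicate 2 the difference was 0.03 (limma, adjusted p = 0.948).

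Sqstm1 and Nbr1 encode related receptors that carry ubiquitinated cargo into autophagosomes. Sqstm1 signal was 12.06, 11.80, 11.69 and 11.97 in HdhQ7/Q7 tumours and 11.63, 11.84, 11.59 and 11.85 in HdhQ111/Q111 tumours. HdhQ111/Q111 replicates 1 and 3 lay below the HdhQ7/Q7 range, and replicates 2 and 4 in its middle. The means were 11.88 ± 0.17 and 11.73 ± 0.13, a log2 difference of -0.15 (SE 0.10, interval -0.39 to 0.09). Nbr1 signal was 11.60, 11.53, 11.36 and 11.57 in HdhQ7/Q7 tumours and 11.44, 11.36, 11.38 and 11.41 in HdhQ111/Q111 tumours. No HdhQ111/Q111 tumour lay below the HdhQ7/Q7 range, because HdhQ7/Q7 replicate 3 was as low as the lowest of them. HdhQ7/Q7 replicates 1, 2 and 4 lay above every HdhQ111/Q111 tumour, the highest of which was at 11.44. The means were 11.52 ± 0.11 and 11.40 ± 0.03, a log2 difference of -0.12 (SE 0.07, interval -0.28 to 0.04).

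**Figure D2:**
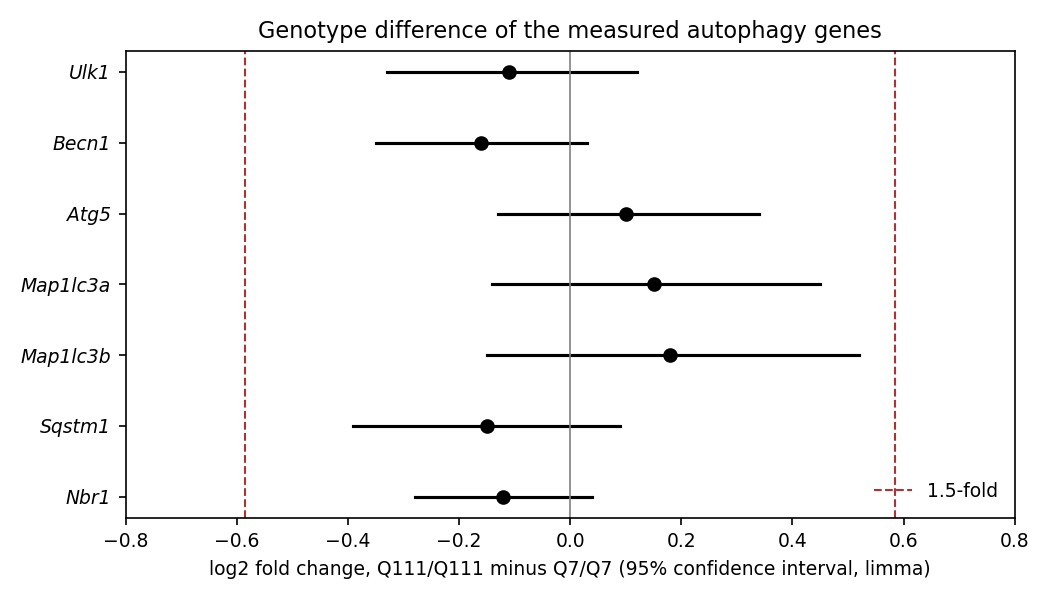
Log2 difference between HdhQ111/Q111 and HdhQ7/Q7 tumours for the 7 measured genes (points: difference, lines: 95% confidence interval from limma, dashed lines: 1.5-fold either way). Every interval spans 0 and ends inside the dashed lines, that of Map1lc3b reaching furthest (0.52).

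None of the 7 genes passed the thresholds of the study, 1.5-fold or more in either direction at an unadjusted p of 0.05 or less (limma), which 1.36% of all 23332 probe sets passed. None had an adjusted p under 0.05, as 0.0129% of probe sets did, and none an unadjusted p under 0.05, as 7.88% did. By the methods' t-test the counts were 0 of the 7 at each of these thresholds too. Signals did not overlap between the genotypes for 0 of the 7 genes and for 4.43% of probe sets. Adjusted p-values over all probe sets ran from 0.679 for Becn1 to 0.813 for Atg5 (limma). The two-sided exact permutation test over the 70 labellings of 4 against 4 tumours, whose smallest possible p is 0.0286, gave from 0.0857 for Becn1 to 0.343 for Map1lc3a and Atg5. The median log2 difference of the 7 genes was -0.11, beside 0.02 over all probe sets. With 4 genes lower and 3 higher, this median was the value of Ulk1, the smallest of the 4 decreases. It was -0.14 beside -0.01 after quantile normalization, -0.17 beside -0.05 after centring on array medians, and -0.06 without HdhQ7/Q7 replicate 1. The array medians were on average 0.07 higher in HdhQ111/Q111 tumours. After each array was centred on its median, the differences of Becn1 and Nbr1 were -0.22 and -0.19 (limma, unadjusted p = 0.022 and 0.0392, adjusted p = 0.519 and 0.539). After quantile normalization Becn1 differed by -0.19 (limma, unadjusted p = 0.0481, adjusted p = 0.619). Htt itself, the gene that carries the expansion, was 1.63-fold lower in HdhQ111/Q111 tumours (9.52 ± 0.09 against 8.81 ± 0.12, n = 4 each, log2 difference -0.70) with no overlap (limma, adjusted p = 0.07).

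For each of the 7 genes the range between tumours of at least 1 genotype was larger than the difference between the genotype means. The SD within genotypes was 0.23 for Map1lc3b and 0.20 for Map1lc3a, at the 81.0 and 74.2 percentile of probe sets with a single symbol, and 0.08 for Nbr1, at the 17.5 percentile. Sqstm1 (0.15), Atg5 (0.15), Ulk1 (0.14) and Becn1 (0.11) lay between them. Over the 8 tumours Map1lc3b spanned 0.75 log2 units and Nbr1 0.24. HdhQ7/Q7 replicate 1 had the highest signal of its genotype in 5 genes, namely Sqstm1, Map1lc3a, Map1lc3b, Ulk1 and Nbr1. HdhQ111/Q111 replicate 2 had the lowest of its genotype in 4 genes, namely Becn1, Map1lc3a, Atg5 and Nbr1. In HdhQ7/Q7 replicate 2 both LC3 genes were low, 0.37 (Map1lc3a) and 0.56 (Map1lc3b) below their means over all tumours. Ulk1 in this tumour lay 0.12 below its mean, while Atg5, Nbr1 and Becn1 lay 0.06, 0.08 and 0.15 above theirs. Low signals there were not confined to the LC3 genes. The tumour was the lowest HdhQ7/Q7 one for many further pathway genes, such as Wdr45 (10.24) and Tollip (10.26). It was the highest for far fewer, such as Atg2b (9.81) and Mlst8 (9.84). These 4 genes were chosen after their values were seen, and exact numbers of such genes were not taken. The array median of this tumour, 7.58, was the lowest of the 8.

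**Figure D3:**
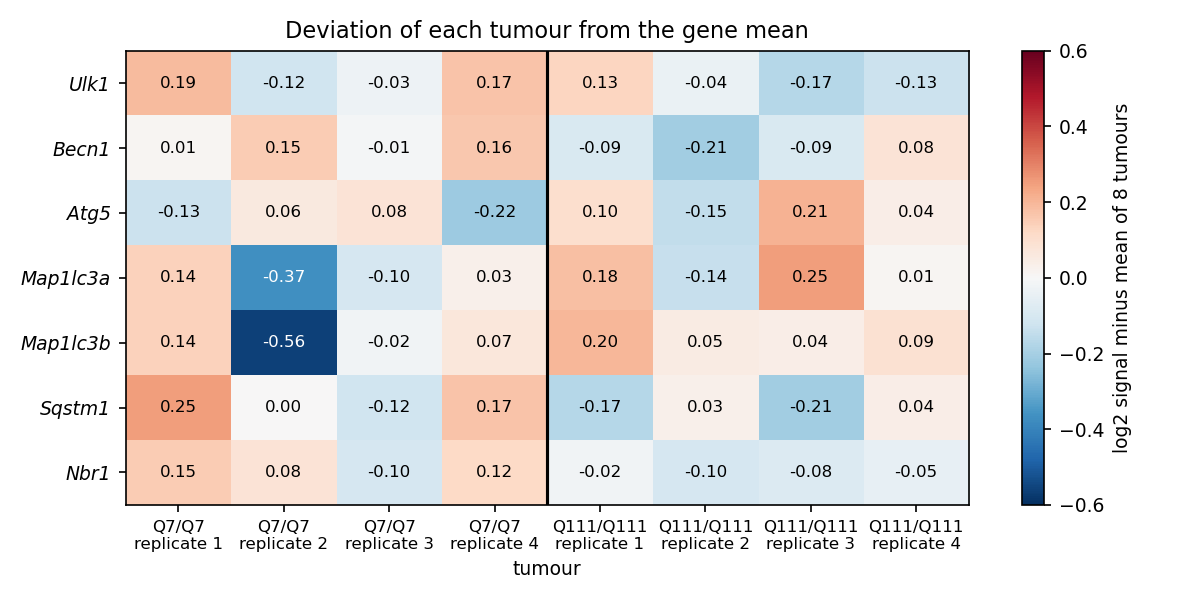
Log2 signal of each tumour minus the mean of the 8 tumours for the 7 measured genes (rows: genes, columns: tumours, the vertical line separates the genotypes). The deepest colours are Map1lc3b and Map1lc3a in HdhQ7/Q7 replicate 2, and no row changes colour cleanly at the line.

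Map1lc3b had the widest range, and its profile over the 8 tumours was compared with those of the 14995 other probe sets with a single symbol by the root mean square difference of mean-centred log2 signals. The closest were Zfp865 (0.083), Abhd18 (0.089) and Supt7l (0.089). All 3 were lowest in HdhQ7/Q7 replicate 2, where their log2 signals were 7.15, 6.06 and 8.50 against at least 7.78, 6.41 and 8.94 in the other tumours. This follows from choosing them by closeness to Map1lc3b, itself lowest there, and is no separate observation. Map1lc3a, at a difference of 0.126, was at the 0.313 percentile of all probe sets compared, while Ulk1 (0.196) was at the 11.4 percentile. Nbr1 (0.251), Sqstm1 (0.259), Atg5 (0.278) and Becn1 (0.295) lay at percentiles from 49.3 to 74.1. These are descriptions over 8 tumours that share the same arrays.

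Among the other genes listed for the pathway and measured, none passed the study's thresholds or the adjusted p threshold either. Of 107 further genes listed for 11 roles, 92 were measured, and 0 passed the thresholds of the study or an adjusted p under 0.05 (limma and the methods' t-test alike). At an unadjusted p under 0.05 there were 6 (2 higher, 4 lower), 6.52% against 7.88% of all probe sets, and the genotypes did not overlap for 2 of the 92 (2.17% against 4.43%). Their log2 differences ran from -0.42 to 0.34 with a median of 0.01, and for 88 of the 92 the interval lay within 1.5-fold either way. The direction of such small differences followed the scaling. The deposited values gave 49 higher and 43 lower, quantile normalization 29 and 63, and centring on array medians 19 and 73, with medians over all probe sets of 0.02, -0.01 and -0.05. The 3 higher and 4 lower among the 7 measured genes were the same in all 3 scalings.

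**Figure D4:**
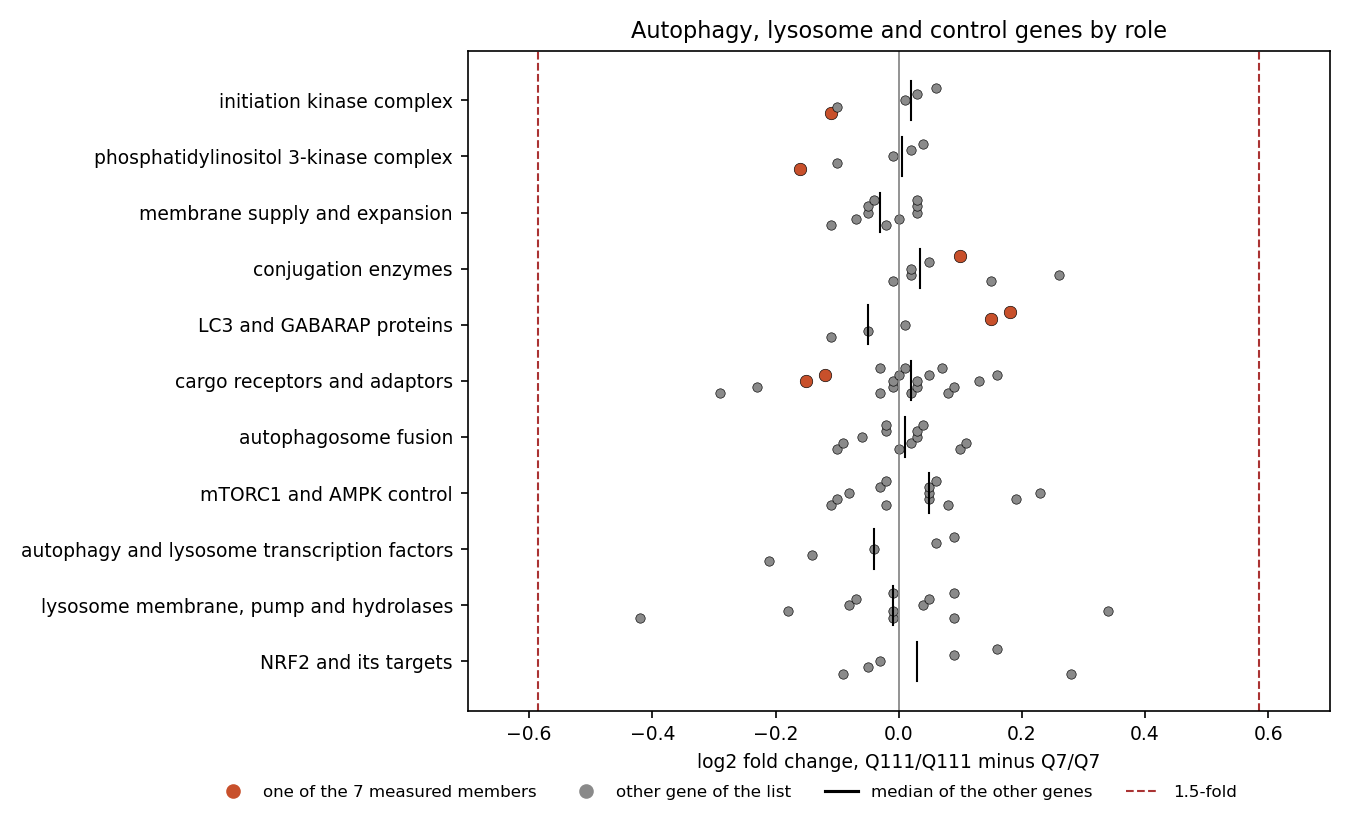
Log2 difference between HdhQ111/Q111 and HdhQ7/Q7 tumours for every measured gene of 11 roles in autophagy and its control (points: genes, orange points: the 7 measured members, black bars: median of the other genes, dashed lines: 1.5-fold either way). All genes lie inside the dashed lines, with Neu1 (-0.42) and Hexa (0.34) the farthest out.

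Among the other parts of the machinery that forms autophagosomes, the gene with the smallest p-value of each role had small differences in most roles. Ulk2, the relative of Ulk1, differed by -0.10 (interval -0.28 to 0.08) and Uvrag, a partner of Beclin 1, by -0.10 (-0.26 to 0.07). Atg9b, a lipid scramblase of the membrane supply, differed by -0.05 (-0.19 to 0.10) and Gabarapl2, of the LC3 family, by -0.11 (-0.49 to 0.27), both from probe sets among the dimmest 40%. With single tumours left out, Gabarapl2 differed by -0.24 to -0.01 and Ulk2 by -0.14 to -0.04. Vps16, of the tethering complex for fusion with the lysosome, differed by 0.11 (-0.07 to 0.28). Atg10, the enzyme that transfers ATG12 to ATG5, had signals of 9.01, 8.70, 8.78 and 9.04 in HdhQ7/Q7 and 9.19, 9.20, 9.24 and 8.93 in HdhQ111/Q111 tumours. Its mean was 1.19-fold higher in HdhQ111/Q111 tumours, 3 of which lay above the HdhQ7/Q7 range (log2 difference 0.26, SE 0.11; limma, adjusted p = 0.627). Among 17 measured cargo receptors and adaptors other than Sqstm1 and Nbr1, Ccpg1 and Retreg1, both receptors for the degradation of endoplasmic reticulum, had the lowest p-values. Ccpg1 signal was 10.21, 10.17, 10.26 and 10.26 in HdhQ7/Q7 and 10.22, 9.84, 10.03 and 9.88 in HdhQ111/Q111 tumours, a 1.17-fold lower mean (log2 difference -0.23, SE 0.09; limma, adjusted p = 0.617). HdhQ111/Q111 replicate 1 lay inside the HdhQ7/Q7 range and the other 3 tumours below it. Retreg1, chosen after its values were seen, was 1.22-fold lower (9.96 ± 0.16 against 9.67 ± 0.18, n = 4 each, log2 difference -0.29; limma, adjusted p = 0.617).

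Of the 92 further pathway genes, Hexa and Neu1 of the lysosome were the 2 without overlap, a share below that of all probe sets (2.17% against 4.43%). Hexa, a subunit of the hydrolase that clears gangliosides, had signals of 9.09, 9.07, 8.95 and 9.10 in HdhQ7/Q7 and 9.38, 9.58, 9.35 and 9.26 in HdhQ111/Q111 tumours, so every HdhQ111/Q111 tumour was higher. The mean was 1.27-fold higher (log2 difference 0.34, SE 0.08, interval 0.15 to 0.53; limma, adjusted p = 0.427). Neu1, the lysosomal sialidase, chosen after its values were seen, had signals of 9.79, 9.39, 9.67 and 9.40 in HdhQ7/Q7 and 9.05, 9.03, 9.16 and 9.33 in HdhQ111/Q111 tumours, so every HdhQ111/Q111 tumour was lower. The mean was 1.34-fold lower (log2 difference -0.42, SE 0.11, interval -0.68 to -0.16; limma, adjusted p = 0.495). The 12 measured lysosomal genes had a median of -0.01.

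Regulators of the pathway showed small differences too. Sesn2, a stress-induced inhibitor of the growth kinase mTORC1, differed by 0.23 (interval -0.09 to 0.55; limma, adjusted p = 0.701). Foxo1, a transcription factor of autophagy genes, was 10.16 ± 0.14 in HdhQ7/Q7 and 9.95 ± 0.10 in HdhQ111/Q111 tumours (n = 4 each, log2 difference -0.21; limma, adjusted p = 0.627). Tfeb, a master regulator of lysosomal genes, differed by -0.04, and its relative Tfe3 by 0.06 (both, and Nfe2l2, chosen after their values were seen). Nfe2l2, which encodes the oxidative stress factor NRF2 that p62 can release from KEAP1, differed by 0.09. Nqo1, a classical NRF2 target, had signals of 9.38, 9.46, 9.61 and 9.89 in HdhQ7/Q7 and 9.68, 9.82, 9.91 and 10.04 in HdhQ111/Q111 tumours, a 1.21-fold higher mean with overlap (log2 difference 0.28, SE 0.13; limma, adjusted p = 0.634).

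The tumours were measured as pieces of tissue, in which fewer cells of a type and less RNA per cell cannot be told apart. The log2 of the summed signal of 5 measured luminal epithelial markers of 6 listed was 14.33 to 14.51 in HdhQ7/Q7 and 14.32 to 14.50 in HdhQ111/Q111 tumours. All 6 fibroblast markers had higher means in HdhQ111/Q111 tumours and 5 of them did not overlap, as 4.43% of all probe sets did not, with sums of 11.50 to 12.18 against 12.44 to 12.82. All 6 adipocyte markers had higher means, with sums of 9.21 to 10.10 against 9.51 to 12.77. The 4 measured skeletal muscle markers of 5 had sums of 9.08 to 10.55 against 8.69 to 12.22, where HdhQ111/Q111 replicates 3 and 4 were at 12.09 and 12.22. Macrophage markers (5 of 6 measured, 4 higher, 1 of these without overlap) summed to 11.54 to 11.99 against 11.66 to 11.98, endothelial markers (5 of 5, 3 higher) to 10.49 to 10.60 against 10.33 to 10.81, and T cell markers (5 of 5, 1 higher, 2 lower without overlap) to 8.70 to 8.99 against 8.53 to 8.71. Their part in the values of the autophagy genes was not tested. With both muscle-marker-rich tumours left out, an alternative chosen after these sums were seen, none of the 7 genes changed direction. Their median difference was then -0.01, which was the value of Ulk1. Becn1 then differed by -0.23 (limma, adjusted p = 0.783), Map1lc3b by 0.21, Sqstm1 by -0.15, Nbr1 by -0.12 and Map1lc3a by 0.10, while Ulk1 differed by -0.01 and Atg5 by 0.03.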

How the data were processed

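Log2 signals of 23332 probe sets on 8 Affymetrix exon arrays were used as deposited by the authors in the series' value table. Their normalization: not given in the sources used here. In the paper's methods, arrays were quantile normalized with a background from antigenomic probes, probes were filtered on detection and genes were annotated through FAST DB, and whether this holds for the deposited table is not stated. Array medians lay between 7.58 and 7.74, and pairs of arrays correlated at 0.984 to 0.99. The number of arrays limits the precision. The labels name the core probe sets of mm9, so no gene coordinates were taken from the reference, and promoter sequences are those of RefSeq in GRCm38.p6. Symbols came from the platform annotation, matched through the Entrez ID to RefSeq. Of the probe sets, 14996 had 1 symbol and 1019 several, and where a gene had several single-symbol rows, the row with the highest mean stood for it.

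The test of genotype was limma 3.58.1 under R 4.3.3 (moderated, two-sided, no trend or robust fitting, all 8 arrays), with p-values adjusted by Benjamini-Hochberg across every probe set. The fits were tested on simulated data. Exact permutation tests ran in Python 3.11.15. The members and lists were chosen with earlier results of these data known. Genes named by rule were the 10 members, the gene with the smallest p of each further list where none passed the study's thresholds, Htt, and the 3 genes closest to the member with the widest range. Further pathway genes were named after their values were seen, as stated where they appear. Alternatives replaced limma by the methods' t-test, added array weights or a trended and robust variance, or used quantile normalization, centring on array medians, the replicate number as a block, other fold thresholds or other rows for a gene, or left out the dimmest 40% of probe sets or single tumours. Where a tumour was left out, the remaining arrays were fitted in the same way.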

Additional observations from a re-analysis of the deposited data

Results flagged for a closer look

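Among 24 genes, each tested in both genotypes (48 groups of 4 tumours), Atg9b in HdhQ7/Q7 replicate 4 stood apart from the rest of its genotype. Its log2 signal was 6.46, whereas the other 3 HdhQ7/Q7 tumours lay between 6.58 and 6.60, so that the gap took 0.842 of the range, just over Dixon's limit at 95% confidence for 4 samples. Chance flags about 1 in 20 groups, so 1 flag among 48 groups is not more than that share. The probe set of Atg9b was among the dimmest 40%.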

How the results depend on the processing

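All 7 genes kept their direction and stayed at an adjusted p of 0.519 or more (limma) under each of 17 alternatives. The t-test, the trended and robust variance, the replicate block, leaving out dim probe sets and averaging rows cannot change a member's difference. Direction was thus open to change only under the others. None of 20 pathway genes, these 7 included, changed direction, but the further genes among them were picked for small p-values. Over the 92 other pathway genes directions followed the scaling, from 49 higher and 43 lower as deposited to 19 and 73 after centring. Counts of the 7 at the study's thresholds and at an adjusted p under 0.05 stayed at 0 under the 17 alternatives. At fold thresholds of 1.2 and 2, run for the 7 genes only, the count could only be 0. The largest fold was 1.14, and no unadjusted p was under 0.05 (limma). At an unadjusted p under 0.05, where the deposited values gave 0 of the 7 genes, quantile normalization gave 1 (Becn1), centring on array medians 2 (Becn1 and Nbr1), and leaving out both tumours rich in muscle markers, HdhQ111/Q111 replicates 3 and 4, gave 1 (Becn1). Leaving out single tumours gave 0 to 1 (Nbr1 without HdhQ7/Q7 replicate 3, Becn1 without HdhQ111/Q111 replicate 4). For the 92 other pathway genes the 6 at this threshold became 3 to 6 when single tumours were left out, with 3 without HdhQ7/Q7 replicate 1 or 3 or HdhQ111/Q111 replicate 4. The deposited values called 2 higher and 4 lower, quantile normalization 1 higher and 5 lower, centring 1 and 6, and array weights 3 and 3, and whether these were the same genes was not counted. The median log2 difference of the 7 genes, -0.11, was -0.01 without both tumours rich in muscle markers and between -0.13 and -0.06 with single tumours left out (-0.06 without HdhQ7/Q7 replicate 1, -0.07 without HdhQ7/Q7 replicate 4 or HdhQ111/Q111 replicate 3). The causes were not tested. Single genes moved with single tumours left out, Sqstm1 between -0.22 and -0.09, Map1lc3a between 0.05 and 0.22, Ulk1 between -0.17 and -0.06 and Atg5 between 0.05 and 0.17. So did Gabarapl2 (-0.24 to -0.01), Ulk2 (-0.14 to -0.04), Vps16 (0.04 to 0.14), Sesn2 (0.13 to 0.31) and Atg9b (-0.08 to -0.03). Same-numbered tumours of the genotypes did not deviate together (correlations of 0.02948, -0.08817, 0.0232 and -0.1887). No pairing by number was thus seen, though 4 correlations cannot exclude one. With the replicate number as a block the count of called members stayed at 0 and Becn1 differed by -0.16 (adjusted p = 0.746), and 4 of the 92 other genes had an unadjusted p under 0.05. Signal over background could not be judged from the deposited values, which hold no detection calls.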
